A study of Mus musculus with 4 samples.

Results

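Genes used as markers of tuft cells were followed in colon tumours of mice: Pou2f3, Gfi1b, Trpm5, Rgs13, Dclk1, Avil, Sh2d6, Alox5, Alox5ap and Hpgds. They were taken by symbol from the deposited counts, where all 10 members were found among 26214 gene symbols. Polyadenylated RNA of tumours raised by azoxymethane, which mutates DNA, together with dextran sulfate sodium, which damages the gut lining, was sequenced in 4 libraries. In 2 libraries the labels give Gsk3b as IEC-/- and in the other 2 as IEC+/+, where IEC is read as intestinal epithelial cells, a usual short form that the labels do not spell out. The driver of the deletion, the deleted exons, strain, sex and age are not stated in the labels. Separate mice within a group are not stated in the labels either; the spread that p-values measure here may be technical. GSK3B phosphorylates beta-catenin and so starts its breakdown, and the comparison asks what its loss from the epithelium does to the tumour transcriptome.

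Tuft cells are rare chemosensory cells of the gut epithelium. The transcription factor POU2F3 specifies them, a taste-like cascade that ends in the cation channel TRPM5 lets them sense their surroundings, and they answer with interleukin 25, acetylcholine and eicosanoids such as leukotrienes and prostaglandin D2. In mouse colon DCLK1 is their usual antibody marker. Several of these genes also have other sources: Pou2f3 is expressed in squamous epithelium, Dclk1 in neurons, Gfi1b in erythroid and megakaryocytic cells, Rgs13 in germinal centre B cells and mast cells, and Alox5, Alox5ap and Hpgds in myeloid or mast cells. In whole tumour tissue, fewer cells of a type and less RNA per cell cannot be told apart.

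Total counts were 25472503 to 27218515 per library. The targeted gene, Gsk3b, had 152 and 149 CPM (read counts divided by the TMM-scaled size of each library) in IEC-/- tumours, against 170 and 157 in IEC+/+ tumours. Its log2 fold change was -0.12 (edgeR quasi-likelihood adjusted p = 0.681), and since the deleted exons are not given this does not check the labels. IEC-/- replicate 2 stood apart in squamous epithelial genes. Krt5, a basal keratin gene, had 0 and 20862 counts in IEC-/- replicates 1 and 2, against 5 and 274 counts in IEC+/+ replicates 1 and 2. The summed level of 15 squamous genes, a list chosen after these values were seen, was 53.3 and 2818 CPM in the IEC-/- libraries, against 218 and 146 CPM in the IEC+/+ libraries. Results are therefore also given without that library where it carries them.

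None of the tuft cell markers passed the test between the groups. With edgeR's quasi-likelihood test, 0 of the 9 members that could be tested had an adjusted p under 0.05, against 0.884% of all 16637 genes tested (0.120% higher and 0.763% lower in IEC-/-). DESeq2, the exact test of edgeR and limma-voom also called 0 members, beside 7.77%, 5.22% and 0.469% of all genes tested. By unadjusted p, with the threshold at 0.05, 2 members were higher and 0 lower, beside 7.50% of all genes higher and 9.12% lower. The same shares of all genes stand beside the unadjusted counts of the lists given further on. The other member, Gfi1b, did not pass the filter on low counts.

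The members had a median log2 fold change of 0.51, ranging from -0.31 to 2.49, where the median over all genes tested was 0.01. Without IEC-/- replicate 2 the members' median was -0.051, against -0.00941 over all genes. The group ranges did not overlap for 3 of the 10 members, Avil, Trpm5 and Pou2f3, each higher in both IEC-/- libraries. Over all genes tested the groups did not overlap for 48.0%: both IEC-/- libraries lay above both IEC+/+ libraries for 24.0%, and below them for 24.1%. The other 7 overlapped. For 6 of 10 members the ratio between the IEC-/- libraries was at least as large as the ratio between the group means.

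**Figure D1:**
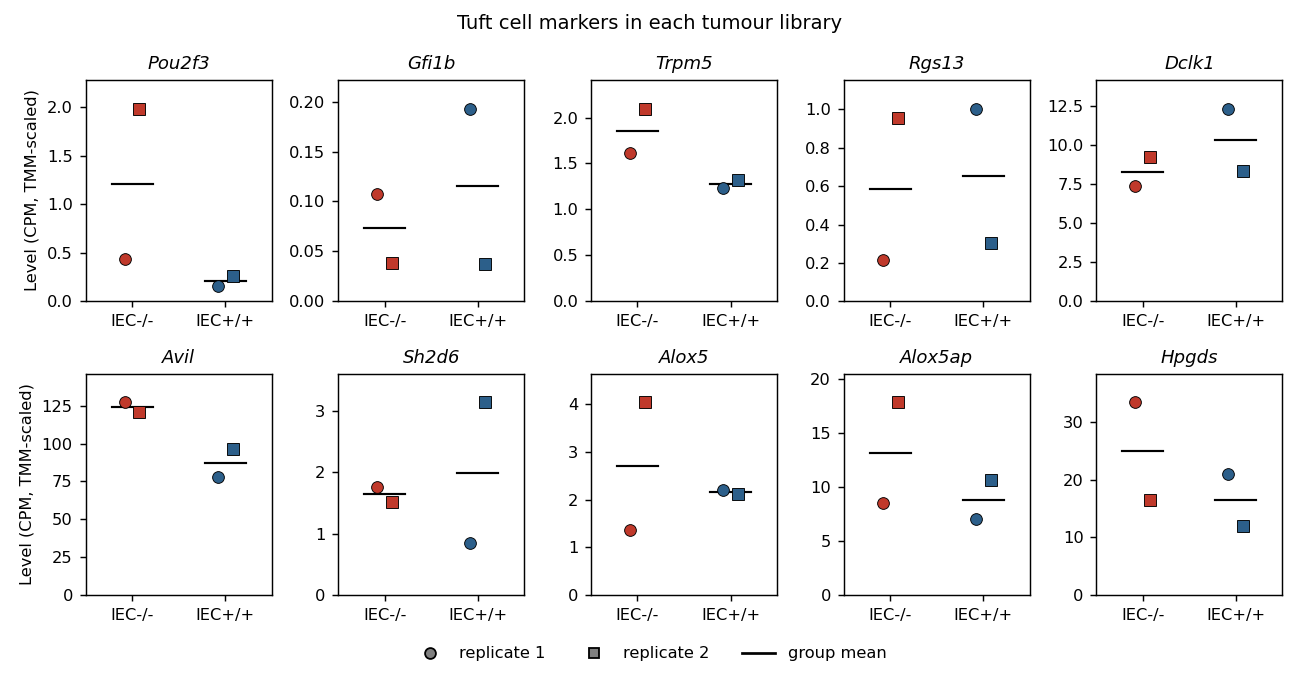
Level of each of the 10 tuft cell markers in CPM, with IEC-/- libraries in red and IEC+/+ libraries in blue, circles for replicate 1, squares for replicate 2 and a bar for the group mean. Each vertical axis starts at 0. The groups are separate for Pou2f3, Trpm5 and Avil, and overlap for the others.

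Per length of exon, Avil stood far above the rest. Advillin, its product, is an actin-binding protein of the villin family found in the apical tuft of these cells and in sensory neurons. In CPM per kilobase of annotated exon, Avil had a level of 37.4 and 35.5 in the IEC-/- libraries and 22.9 and 28.5 in the IEC+/+ libraries. Alox5ap had the next level in the scale, 6.03 and 12.6 in IEC-/- and 4.95 and 7.49 in IEC+/+, followed by Hpgds with 5.19 and 2.55 in IEC-/- and 3.27 and 1.85 in IEC+/+. Sh2d6, Dclk1, Alox5, Rgs13, Trpm5 and Pou2f3 lay between 0.05 and 1.86 CPM per kilobase in every library, and Gfi1b between 0.0207 and 0.105. In IEC+/+ replicate 2 Sh2d6, at 1.86, stood level with Hpgds. The order among the lower members changed from library to library.

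Promoter sequence is shown for Avil and Trpm5, members whose groups did not overlap and whose start is in the RefSeq promoter table for GRCm38.p6, to show whether the octamer letters ATGCAAAT, which POU-family factors bind, lie just before the start. Both windows hold the 250 bases before the annotated start, 5′ to 3′ on the gene's strand, and no base of either lies in a GENCODE M21 exon, although the RefSeq span of Avil begins further upstream. Capitals mark matches of the first 7 letters, ATGCAAA, on either strand. The Avil window is chr10:127000459-127000708, plus strand, and that of Trpm5 is chr7:143094643-143094892, minus strand.
Avil: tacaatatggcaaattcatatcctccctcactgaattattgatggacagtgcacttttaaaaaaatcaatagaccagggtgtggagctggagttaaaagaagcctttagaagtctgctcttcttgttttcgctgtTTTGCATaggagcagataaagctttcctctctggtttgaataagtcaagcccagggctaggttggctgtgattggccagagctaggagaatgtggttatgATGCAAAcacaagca
Trpm5: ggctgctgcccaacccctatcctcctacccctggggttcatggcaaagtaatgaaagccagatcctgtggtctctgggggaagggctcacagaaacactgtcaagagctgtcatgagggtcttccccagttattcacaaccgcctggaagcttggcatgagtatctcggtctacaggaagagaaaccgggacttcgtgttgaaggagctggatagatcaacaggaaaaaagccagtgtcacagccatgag
The full octamer was in neither window. Avil had 2 matches of the 7 letters, beginning 115 and 15 bases before the start, and Trpm5 had 0. Of 8 members with a promoter in the table, 2 had the 7 letters, Avil and Hpgds, and 1 had the full octamer, Hpgds, 174 bases before a start whose window overlaps annotated exons. Of all 32851 promoters in the table, 4.12% hold the 7 letters and 1.6% the octamer, which includes the 7. A match describes letters and not a bound site.

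Among the regulators, Pou2f3 had the widest difference and rested on few reads. Pou2f3 (chromosome 9, 43123939 to 43210369, GRCm38) was counted 12 and 52 times in the IEC-/- libraries, against 4 and 7 times in the IEC+/+ libraries. In level that is 0.432 and 1.98 CPM in IEC-/-, with a mean of 1.21 ± 1.10, and 0.154 and 0.265 CPM in IEC+/+, with a mean of 0.210 ± 0.0781 (SD, n = 2 each). The groups did not overlap, and IEC-/- replicate 2 was 4.59 times as high as replicate 1. The log2 fold change was 2.49 (SE 0.94, edgeR quasi-likelihood adjusted p = 0.278), and the 95% interval of the fold ran from 1.11 to 28.5. Without IEC-/- replicate 2 the log2 fold change was 1.02 (edgeR adjusted p = 0.701), and without IEC-/- replicate 1 it was 3.20 (edgeR adjusted p = 0.0846).

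The squamous sum and Pou2f3 were both highest in IEC-/- replicate 2, but did not share the order of the other libraries. Among the squamous genes, Krt15 was highest in IEC+/+ replicate 1, Krt10 in IEC+/+ replicate 2 and Krt1 in IEC-/- replicate 1. In IEC-/- replicate 1 the squamous sum was lowest, at 53.3 CPM, while Pou2f3, at 0.432 CPM, was above both IEC+/+ libraries. The CPM ratio of Krt5 to Pou2f3 was 0 and 401 in IEC-/-, against 1.25 and 39.1 in IEC+/+. Trp63, the master regulator of squamous epithelium, had 2 and 892 counts in the IEC-/- libraries, against 0 and 23 counts in the IEC+/+ libraries. Krt6a, an activated-squamous keratin gene, had 1.26 and 587 CPM in the IEC-/- libraries, against 14.6 and 18.7 in the IEC+/+ libraries. Of the 15 squamous genes 12 were tested, 10 had higher and 2 lower means in IEC-/-, and 0 were called. Among genes of late squamous layers, Krt1 and Ivl had at most 6 counts in any library, Krt10 had 51 and 62 counts in IEC-/-, against 50 and 91 counts in IEC+/+, and Lor had 58 and 157 counts in IEC-/-, against 70 and 48 counts in IEC+/+. IEC-/- replicate 1, with Krt5 at 0, had 361 counts of Krt14 and 511 of Krt15, the lowest library for each. Krt14 had 22651 counts in IEC-/- replicate 2, and 2010 and 1295 in IEC+/+. Krt15 had 1382 counts in IEC-/- replicate 2, and 1650 and 554 in IEC+/+. The part of squamous cells in the Pou2f3 level was not tested.

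Gfi1b (chromosome 2, 28609450 to 28621982), a zinc finger repressor expressed in tuft cells, was near the limit of detection. It had 3 and 1 counts in the IEC-/- libraries, against 5 and 1 counts in the IEC+/+ libraries. A count of 0 would allow up to 3 counts, and 3 of the 4 libraries were at or under that limit, so no fold is given. Platelet and erythroid genes, which share Gfi1b, were well above it: their summed level was 70.9 and 424 CPM in the IEC-/- libraries, against 90.3 and 93.6 in the IEC+/+ libraries. Ppbp, a platelet chemokine gene, made up most of the IEC-/- replicate 2 sum with 348 CPM, and Gfi1b had 1 count there. The part of these cells in the Gfi1b counts was not tested.

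In the signalling cascade, Trpm5 (chromosome 7, 143069153 to 143094642), the cation channel of taste and tuft cells, was low in all libraries. It had 45 and 55 counts, or 1.62 and 2.10 CPM, in the IEC-/- libraries, against 32 and 35 counts, or 1.24 and 1.32 CPM, in the IEC+/+ libraries. The lower IEC-/- library was above the higher IEC+/+ library. For Trpm5 the log2 fold change was 0.54 (SE 0.44, edgeR adjusted p = 0.609), and the 95% interval of the fold, 0.68 to 3.09, includes 1. Tssc4 exons overlap 3.44% of the Trpm5 exon length, and whether counting used strand is not given. Tssc4 had 41.3 and 47.3 CPM in the IEC-/- libraries, against 46.7 and 50.7 in the IEC+/+ libraries. That is a higher level than that of Trpm5 in every library, and the part of Tssc4 reads in the Trpm5 counts was not tested.

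Rgs13 (chromosome 1, 144138654 to 144177372), a brake on G protein signalling, was split within each group. It was counted 6 and 25 times in the IEC-/- libraries, against 26 and 8 times in the IEC+/+ libraries. The higher library of each group was over 3 times the lower, 4.42 times in IEC-/- and 3.32 times in IEC+/+, and the group ranges overlapped almost wholly. The log2 fold change was -0.16 (SE 0.95, edgeR adjusted p = 0.960), with a fold interval of 0.173 to 4.60. Its sign turned without IEC+/+ replicate 1, to 0.93, and without IEC-/- replicate 1, to 0.54. B cell genes, which share Rgs13, summed to 38.2 and 68.0 CPM in the IEC-/- libraries, against 43.6 and 42.0 in the IEC+/+ libraries. Their part was not tested.

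Of the structural genes, Dclk1 (chromosome 3, 55242364 to 55539068), the microtubule-binding kinase that is the most used tuft cell marker, overlapped between the groups. It had 7.41 and 9.23 CPM in the IEC-/- libraries, against 12.4 and 8.32 CPM in the IEC+/+ libraries. IEC+/+ replicate 1 was highest and the other 3 lay close together. The means were 8.32 ± 1.28 CPM in the IEC-/- group and 10.3 ± 2.85 in the IEC+/+ group (SD, n = 2 each); on the log2 scale the fold change was -0.31 (SE 0.30, edgeR adjusted p = 0.669). Without IEC+/+ replicate 1 the log2 fold change was -0.00149. The 95% interval of the fold was 0.479 to 1.35.

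The same IEC+/+ library was highest in fibroblast genes, whose summed level was 2342 and 2023 CPM in the IEC-/- libraries, against 3556 and 2189 in the IEC+/+ libraries. All 10 fibroblast genes were tested and 0 were called. Neuronal and glial genes summed to 13.5 and 21.5 CPM in the IEC-/- libraries, against 14.1 and 12.1 in the IEC+/+ libraries, with Sox10, a glial regulator gene, at 2 counts or fewer. The part of these cells in the Dclk1 level was not tested.

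Avil (chromosome 10, 127000709 to 127020994) was the member with the tightest estimate. It had 127 and 121 CPM in the IEC-/- libraries, against 77.7 and 96.8 CPM in the IEC+/+ libraries. Both IEC-/- libraries lay above both IEC+/+ libraries, and the IEC-/- pair differed by 1.06 times. The means were 124 ± 4.70 CPM in the IEC-/- group and 87.2 ± 13.5 in the IEC+/+ group (SD, n = 2 each). The log2 fold change was 0.51 (SE 0.15), with a fold interval of 1.10 to 1.83, an unadjusted p of 0.0159 and an adjusted p of 0.195 by edgeR's quasi-likelihood test. Leaving out any single library kept it between 0.36 and 0.67, without a call.

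Tsfm exons overlap 4.86% of the Avil exon length. Tsfm, a mitochondrial translation factor gene, had 18.7 and 23.6 CPM in the IEC-/- libraries, against 25.3 and 22.4 in the IEC+/+ libraries, a lower level than that of Avil in every library. Against the epithelial adhesion gene Epcam, Avil stood at a CPM ratio of 0.10 and 0.115 in IEC-/-, against 0.0556 and 0.067 in IEC+/+. The CPM ratio of Avil to Pou2f3 was 295 and 60.8 in IEC-/- and 504 and 365 in IEC+/+. The part of cells other than tuft cells in the Avil level was not tested.

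Sh2d6 (chromosome 6, 72513641 to 72521707), which encodes an SH2-domain adaptor, differed more between the IEC+/+ libraries than between the groups. It had 49 and 40 counts in the IEC-/- libraries, against 22 and 83 counts in the IEC+/+ libraries, so both IEC-/- libraries lay between the IEC+/+ libraries. The log2 fold change was -0.28 (SE 0.68, edgeR adjusted p = 0.890), with a fold interval of 0.254 to 2.67. It was -0.93 without IEC+/+ replicate 1 and 0.95 without IEC+/+ replicate 2.

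**Figure D2:**
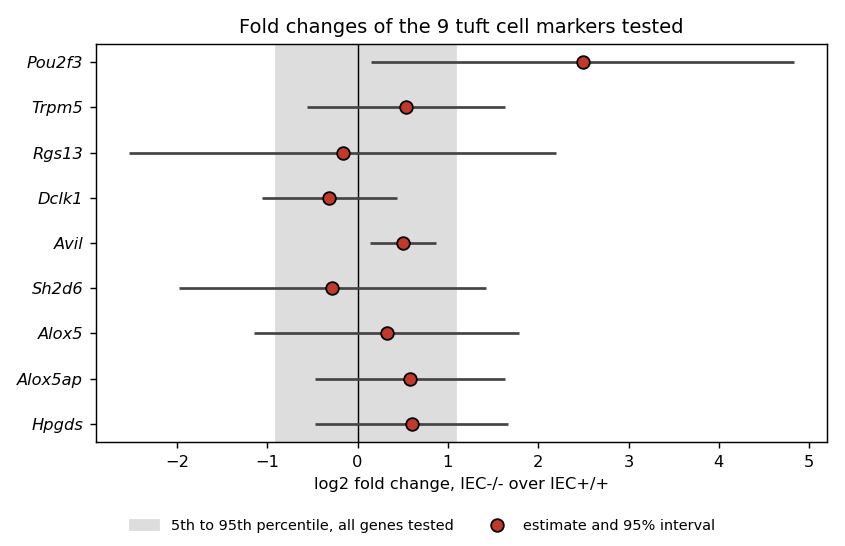
Log2 fold change of IEC-/- over IEC+/+ for the 9 members tested, with 95% intervals from the edgeR fit, and in grey the span from the 5th to the 95th percentile of all genes tested (-0.90 to 1.09). The intervals of Pou2f3 and Avil lie above 0 before adjustment, and the Avil interval is the narrowest.

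The eicosanoid enzymes differed more between the IEC-/- libraries than between the groups. Alox5 (chromosome 6, 116410077 to 116461178), the lipoxygenase that starts leukotriene synthesis, had 1.37 and 4.04 CPM in the IEC-/- libraries, against 2.20 and 2.12 CPM in the IEC+/+ libraries. The IEC+/+ pair lay between the IEC-/- libraries. Its log2 fold change was 0.32 (SE 0.59, edgeR adjusted p = 0.845) and turned to -0.66 without IEC-/- replicate 2.

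Alox5ap (chromosome 5, 149264767 to 149288153), which presents arachidonic acid to that enzyme, had 8.56 and 17.8 CPM in the IEC-/- libraries, against 7.02 and 10.6 CPM in the IEC+/+ libraries. IEC-/- replicate 2 was again highest, and the other 3 overlapped between groups. Alox5ap had a log2 fold change of 0.58 (SE 0.42, edgeR adjusted p = 0.561), or -0.05 without IEC-/- replicate 2. The predicted gene Gm19719 overlaps 13.3% of its exon length.

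The neutrophil list was also highest in IEC-/- replicate 2. It summed to 105 and 393 CPM in the IEC-/- libraries, against 128 and 214 in the IEC+/+ libraries. The chemokine receptor gene Cxcr2 had 5.25 and 15.7 CPM in the IEC-/- libraries, against 8.38 and 10.4 in the IEC+/+ libraries. The CPM ratio of Alox5 to Cxcr2, a pair chosen after the values were seen, was 0.26 and 0.257 in IEC-/-, against 0.263 and 0.203 in IEC+/+. Other such ratios varied more: Alox5 to the myeloid integrin gene Itgam stood at 0.0362 and 0.105 in IEC-/-, against 0.0908 and 0.0808 in IEC+/+, and Alox5ap to the neutrophil receptor gene Csf3r at 0.458 and 0.678 in IEC-/-, against 0.460 and 0.483 in IEC+/+. Of 9 neutrophil genes tested 1 was called, Ly6g, a family member with close paralogs, with 12.2 and 15.2 CPM in the IEC-/- libraries, against 66.4 and 62.5 in the IEC+/+ libraries (log2 fold change -2.23, edgeR adjusted p = 0.0322), opposite to the means of 7 of the 9. Camp was at 0 in replicate 1 of each group and Mpo at 2 counts or fewer. The part of neutrophils in these levels was not tested.

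Hpgds (chromosome 6, 65117293 to 65144908), the haematopoietic prostaglandin D synthase, had the opposite order within IEC-/-. It had 33.3 and 16.4 CPM in the IEC-/- libraries, against 21.0 and 11.9 CPM in the IEC+/+ libraries. Replicate 1 was the higher library of each group and the groups overlapped. For Hpgds the log2 fold change was 0.60 (SE 0.43, edgeR adjusted p = 0.553), with a fold interval of 0.723 to 3.17. Without IEC-/- replicate 1 it was -0.00878, and without IEC-/- replicate 2 it was 1.02 (edgeR adjusted p = 0.176).

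The macrophage gene Adgre1, which encodes F4/80, had 32.2 and 16.8 CPM in the IEC-/- libraries, against 23.8 and 12.4 CPM in the IEC+/+ libraries, the same order of libraries as Hpgds. The CPM ratio of Hpgds to Adgre1, also chosen after the values were seen, was 1.04 and 0.977 in IEC-/-, against 0.883 and 0.960 in IEC+/+. Against Csf1r, another macrophage gene, the ratio varied more, with 0.360 and 0.248 in IEC-/-, against 0.316 and 0.213 in IEC+/+. Against the mast cell gene Ms4a2 it was 1.58 and 1.33 in IEC-/-, against 2.26 and 3.31 in IEC+/+. All 12 macrophage genes were tested, 9 with higher means in IEC-/- and 0 called, and they summed to 1429 and 1024 CPM in the IEC-/- libraries, against 883 and 735 in the IEC+/+ libraries. Mast cell genes summed to 125 and 227 CPM in the IEC-/- libraries, against 109 and 144 in the IEC+/+ libraries, with 11 of 14 tested having higher means in IEC-/- and 0 called. Ms4a2, which encodes a subunit of the mast cell IgE receptor, had 21.1 and 12.3 CPM in the IEC-/- libraries, against 9.30 and 3.59 in the IEC+/+ libraries (edgeR adjusted p = 0.278). Only Tpsab1 and Mrgprb2 of the mast cell list shared its order within IEC-/-. The rest of the list was higher in IEC-/- replicate 2, such as Kit (23.5 and 38.2 CPM) and Tpsb2 (12.7 and 25.8 CPM). The part of macrophages and mast cells in the Hpgds level was not tested.

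**Figure D3:**
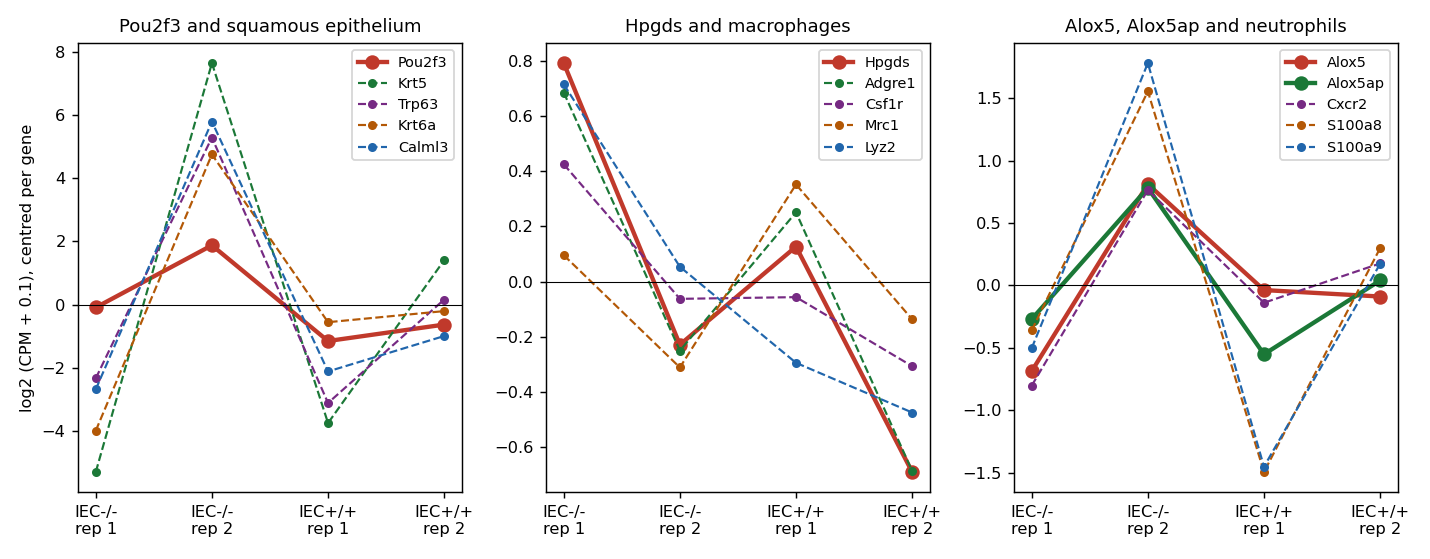
Levels of 4 members (thick lines) beside markers of other cell types (dashed) in the 4 libraries, as log2 of CPM + 0.1 centred on each gene's mean. Lines only join the points of a gene, the vertical scales differ, and the markers drawn were chosen after their values were seen. Pou2f3 and the squamous genes peak in IEC-/- replicate 2, Hpgds and Adgre1 share their order, and Alox5, Alox5ap and the neutrophil genes are highest in IEC-/- replicate 2.

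The members thus had no shared order of libraries. IEC-/- replicate 2 was highest for 4 members, IEC+/+ replicate 1 for 3, IEC-/- replicate 1 for 2 and IEC+/+ replicate 2 for 1. The lowest library was IEC+/+ replicate 1 for 5 members, IEC-/- replicate 1 for 3 and IEC+/+ replicate 2 for 2. Genes were ranked by the distance of their centred log2 levels over the 4 libraries from the median profile of the 9 members tested, and the nearest of 15135 genes were Pigl, Id3, Hip1, Snord12 and Sgk3. Their distances were 0.018 to 0.0498 on the log2 scale. The median distance of the members themselves was 0.901, and 11113 of the 15135 genes lay within it.

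Other genes known from tuft cells were looked up in 4 lists, of which 51 of 55 genes were found by symbol and 41 were tested. Of these 0 were called by edgeR, and the median log2 fold change was 0.17. An unadjusted p under 0.05 was found for 9 (4 higher, 5 lower), beside 16.6% of all genes. Defining tuft products were at or near 0: Il25, the cytokine that starts the type 2 response, had 0 counts in every library, which allows up to 3 counts each. Chat, the acetylcholine-synthesising enzyme gene, had 0 and 8 counts in IEC-/-, against 0 and 8 counts in IEC+/+. The G protein genes of the taste cascade were also sparse: Gnat3 had 1 and 11 counts in IEC-/-, against 2 and 1 counts in IEC+/+, and Gnb3 had 2 and 36 counts in IEC-/-, against 0 and 0 counts in IEC+/+. Gng13, the third of these genes and the one that was tested, had 8 and 25 counts in IEC-/-, against 15 and 27 counts in IEC+/+ (log2 fold change -0.37, edgeR adjusted p = 0.863). IEC-/- replicate 2 was the highest library for Gnat3 and Gnb3, and IEC+/+ replicate 2 for Gng13.

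In the transduction list 7 of 11 genes were tested and 0 called (median 0.00176). Itpr2, a calcium release channel gene, had 30.9 and 29.2 CPM in the IEC-/- libraries, against 19.3 and 17.9 in the IEC+/+ libraries (log2 fold change 0.69, edgeR adjusted p = 0.126). The phospholipase genes Plcg2 and Plcb2 had log2 fold changes of 0.43 and 0.46 (edgeR adjusted p = 0.261 and 0.542). In the list of mediators and receptors 6 of 9 were tested and 0 called (median 0.24). Pla2g4a, the phospholipase that frees arachidonic acid, had 23.6 and 17.4 CPM in the IEC-/- libraries, against 50.4 and 32.9 in the IEC+/+ libraries (-1.02, edgeR adjusted p = 0.158). Cd300lf, a receptor gene of tuft and myeloid cells, had 6.47 and 9.42 CPM in the IEC-/- libraries, against 3.67 and 4.77 in the IEC+/+ libraries (0.91, edgeR adjusted p = 0.268), and the cyclooxygenase gene Ptgs1 had a log2 fold change of 0.22 (edgeR adjusted p = 0.587).

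In the list of structural and signalling genes 21 of 22 were tested and 0 called (median 0.18). The 3 with the smallest p were lower in IEC-/-: Vil1, the villin gene that brush borders of absorptive cells share, with -0.76 (edgeR adjusted p = 0.0780), Strip2 with -1.92 (edgeR adjusted p = 0.110) and the phosphatase gene Ptpn18 with -0.57 (edgeR adjusted p = 0.166). Strip2 had 46 and 28 counts in IEC-/-, against 147 and 123 counts in IEC+/+. In the regulator list 7 of 13 were tested and 0 called (median 0.00367). Atoh1, which directs progenitors to secretory fates, had 15.4 and 15.1 CPM in the IEC-/- libraries, against 26.6 and 31.1 in the IEC+/+ libraries (-0.92, edgeR adjusted p = 0.0903). Gfi1, the paralog of Gfi1b, had -0.46 and Sox4 0.27 (edgeR adjusted p = 0.441 and 0.588).

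**Figure D4:**
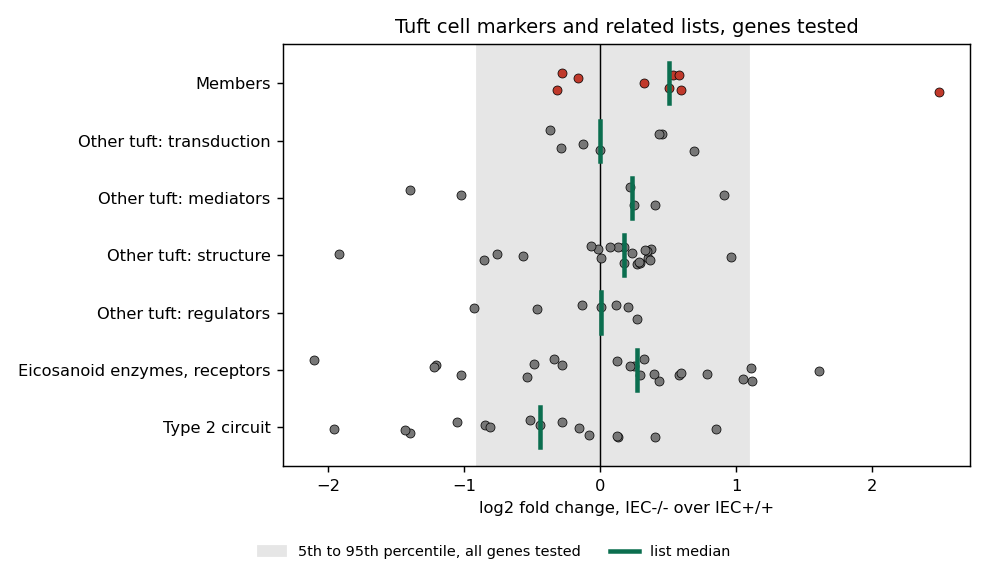
Log2 fold change of IEC-/- over IEC+/+ for the members (red) and for genes of related lists (grey), each point a gene tested and the green bar the list median, with the 5th to 95th percentile of all genes shaded. Of the members, Pou2f3 alone lies outside the shaded span.

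The eicosanoid and type 2 lists place the members in the pathways they feed. Of 22 eicosanoid genes tested, which include Alox5, Alox5ap and Hpgds, 0 were called (median 0.27); by unadjusted p under 0.05, 2 were higher and 2 lower. Alox12, the platelet and epithelial 12-lipoxygenase gene, had 174 and 162 CPM in the IEC-/- libraries, against 68.4 and 86.8 in the IEC+/+ libraries (log2 fold change 1.12, edgeR adjusted p = 0.0541). Hpgd, the enzyme gene that inactivates prostaglandins, had 18.0 and 13.8 CPM in the IEC-/- libraries, against 47.4 and 26.6 in the IEC+/+ libraries (-1.22, edgeR adjusted p = 0.156). Ltc4s, which makes leukotriene C4 from the product of Alox5, had 28 and 26 counts in IEC-/-, against 17 and 27 counts in IEC+/+.

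Of 15 genes tested in the circuit of type 2 cytokines and their receptors, 0 were called, the median was -0.44, and by unadjusted p under 0.05, 3 were lower and 0 higher. Il13ra1, a receptor chain for interleukin 13, had 80.3 and 74.3 CPM in the IEC-/- libraries, against 141 and 136 in the IEC+/+ libraries (log2 fold change -0.84, edgeR adjusted p = 0.0525). Il1rl1, the receptor gene for interleukin 33, had 49.1 and 99.0 CPM in the IEC-/- libraries, against 308 and 266 in the IEC+/+ libraries (-1.96, edgeR adjusted p = 0.0731), and Areg, a growth factor gene, had -1.44 (edgeR adjusted p = 0.166). Il33 itself, the gene of the ligand of Il1rl1, had 29.6 and 79.9 CPM in the IEC-/- libraries, against 44.7 and 55.1 in the IEC+/+ libraries (0.13, edgeR adjusted p = 0.921). The lymphocyte cytokine genes of the list were barely counted: Il9 had 0 counts in every library, Il13 had 0 and 5 counts in IEC-/-, against 0 and 0 counts in IEC+/+, and Il4 and Il5 had at most 3 counts in any library.

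Scaling to epithelial RNA raised fold changes across all genes, because general epithelial genes were lower in IEC-/-. Of 17 such genes tested, 15 had lower and 2 higher means in IEC-/-. By unadjusted p under 0.05, 11 were lower and 1 higher. Called lower were 2, Krt20 and Lgals4, beside 0.763% of all genes. Krt20 had 51.4 and 26.3 CPM in the IEC-/- libraries, against 327 and 239 in the IEC+/+ libraries (log2 fold change -2.86, edgeR adjusted p = 0.0461). Lgals4, which has a close paralog, had -1.39 (edgeR adjusted p = 0.0403). When libraries were scaled by those 17 genes, the median over all genes tested moved to 0.66. There 42.6% of all 16637 genes tested were called, 6839 higher and 248 lower. In that scaling 3 members were called higher, Pou2f3 (3.14, edgeR adjusted p = 0.0314), Avil (1.14, edgeR adjusted p = 0.0135) and Hpgds (1.26, edgeR adjusted p = 0.0292). The members' median was 1.14 there, to be read against the 0.66 of all genes. Without that scaling it was 0.51, against 0.01 over all genes, so the shift was not particular to the members.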

How the data were processed

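Polyadenylated RNA of tumour tissue was sequenced in 2 IEC-/- and 2 IEC+/+ libraries, grouped and numbered by their titles. Each deposited file holds raw counts for gene symbols, as whole numbers without scaling. Per the submitters' processing notes, TopHat, edgeR, limma and mm10 were used, with no version or role; how reads were counted, on which annotation and strand, was not stated there. The test was that of edgeR 4.0.16 (R 4.3.3): TMM library sizes (factors 0.955 to 1.05), default expression filter (16637 genes kept), quasi-likelihood F-test without covariates, Benjamini-Hochberg adjustment over all genes tested, calls at an adjusted p under 0.05. The 95% intervals and SE come from that fit. Levels are CPM after TMM scaling, as mean ± SD. The fit was tested on simulated data. It called 28.7% of genes simulated with a log2 change of 1, 76.7% with a change of 2 and 0.13% with 0. A 2-fold change could thus often be missed. Annotation and exon lengths are GENCODE M21 (GRCm38), and promoters are RefSeq's for GRCm38.p6.

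The members and all lists were chosen with earlier results of these data known, and the squamous list and the CPM ratios after these values were seen. Named genes were all members, the 3 smallest p of each tuft, eicosanoid and type 2 list, called genes of the cell type lists beside members, their defining markers, and the 5 genes nearest to the members' profile; the rule also took the 3 smallest p of each cell type list, which are not printed. Alternatives were DESeq2 1.42.0, the exact test, limma-voom (limma 3.58.1), other scalings and filters, a replicate block, and leaving out each library. No smaller two-sided exact permutation p than 0.333 is possible with 2 against 2 libraries, so none is given.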

Additional observations from a re-analysis of the deposited data

How the results depend on the processing

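With either direction counted, 0 members were called by each alternative other than the scaling by epithelial genes (3 higher). The count over all genes, 147 as reported, was 1293 by DESeq2, 869 by the exact test, 78 by limma-voom, 83 with total counts only, 376 with no filter on low counts and 7087 with epithelial scaling; the causes were not tested. Leaving out a library gave 0 to 749, and 0 without either IEC+/+ library (1370 without replicate 1 and 1738 without replicate 2 at an unadjusted p under 0.05). A lone library was assumed to vary like the others. The members' median log2 fold change, 0.51, was 1.14 with epithelial scaling and -0.051 to 0.59 with a library left out, the low value being that without IEC-/- replicate 2.

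With epithelial scaling Dclk1, Sh2d6 and Rgs13 changed sign, to 0.36, 0.31 and 0.55, while the median of all genes moved to 0.66. With a library left out, the log2 fold change ranged from -0.66 to 0.90 for Alox5, -0.051 to 1.01 for Alox5ap, -0.93 to 0.95 for Sh2d6, -1.58 to 0.93 for Rgs13 and -0.00878 to 1.07 for Hpgds. Of 124 member values under alternatives, 112 kept sign and call, 9 changed sign and 3 gained a call. DESeq2 gave Rgs13 no adjusted p. With total counts only, the median of all genes was 0.12.

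The labels share replicate numbers but do not say that they pair libraries, and the deviations of same-numbered libraries correlated at 0.155 over genes. A replicate block called 211 genes and 0 members, and the Hpgds unadjusted p was then 0.0282. Depth limits Pou2f3, Rgs13 and Gfi1b, whose counts were 52 or fewer in every library. Also sparse were Trpm5, with 32 to 55 counts, Sh2d6, with 22 to 83, and Alox5, with 38 to 106.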

Other observations

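In other secretory lineages, 12 goblet cell genes were tested, 11 with lower means in IEC-/- (median of the list -1.22). Called lower by edgeR's quasi-likelihood test were 3, Fcgbp, Tff3 and Galnt12, beside 0.763% of all genes. At an unadjusted p under 0.05, 9 were lower, beside 9.12% of all genes. Fcgbp, a mucus protein gene, had 195 and 175 CPM in the IEC-/- libraries, against 1958 and 1088 in the IEC+/+ libraries. Of 16 enteroendocrine genes tested 0 were called by edgeR, the median was 0.10, and by unadjusted p under 0.05, 2 were higher and 4 lower. The difference between these lists and the tuft cell markers was not tested.

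Of 2 eosinophil genes tested 0 were called, and the list summed to 1.58 and 7.43 CPM in the IEC-/- libraries, against 2.66 and 3.14 in the IEC+/+ libraries, with Ear1 and Ear6 at 0. Siglecf, an eosinophil gene that tuft cells can also carry, had 6 and 10 counts in IEC-/-, against 4 and 10 counts in IEC+/+. Of 12 heat shock and immediate-early genes, which respond to sample handling, 0 were called and 6 were lower at an unadjusted p under 0.05 (median -0.64); they summed to 1318 and 1222 CPM in the IEC-/- libraries, against 1882 and 2460 in the IEC+/+ libraries. Their part in the results above was not tested.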
